A study of Mus musculus with 8 samples.

Results

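Axon guidance in the developing retina relies on secreted and membrane-bound ligands and on the receptors that growing axons carry. Semaphorins act through plexins and neuropilins, Slit proteins through Robo receptors, ephrins through Eph receptor tyrosine kinases, and netrins through Dcc, Neo1 and the Unc5 receptors. In the retina these families steer ganglion cell axons to the optic disc, set up opposing Eph and ephrin gradients that carry topographic position, and help to place neurites in the inner layers; several also act on blood vessels. The genes described here are the rows of the deposited gene table whose symbol belongs to one of these families: semaphorins, plexins, neuropilins, Slit, Robo, EphA, EphB, ephrin-A, ephrin-B, netrins, netrin-G, Unc5, and Dcc with Neo1. There were 70 such rows among 16096 genes, for 69 symbols, since Efna5 has 2 rows, and 69 of the 70 passed the filter on low counts. Rows were assigned to families by symbol alone, without any measured value, but the members were chosen with earlier results of these data known.

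Peripheral retina came from C57BL/6 mouse embryos at embryonic day 16.5. Embryos labelled Pax6alpha-Cre:Ezh2fl/null carried the Cre driver, a floxed Ezh2 allele (one that Cre can delete) and a null Ezh2 allele (4 libraries), and embryos labelled Pax6alpha-Cre:Ezh2fl/+ carried the same driver and floxed allele with a wild-type allele (4 libraries). Ezh2 is the catalytic subunit of Polycomb repressive complex 2, which methylates histone H3 at repressed genes. Cre is thus present in both groups. Its driver, the alpha enhancer of Pax6, is known to act in peripheral retinal progenitors and not in every retinal cell. The labels tie no library to an embryo or a litter, so p-values cover only the spread between these samples. That spread may be technical in part, and in Ezh2fl/+ wholly. The Ezh2fl/null libraries were of both sexes, as given below, so they did not all come from the same embryo. In bulk tissue, fewer cells of a type and less RNA per cell cannot be told apart.

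Total counts ran from 13994825 to 18391647 per library. The whole-gene count of Ezh2 was not lower in the libraries labelled Ezh2fl/null: it was 276, 251, 255 and 220.4 CPM (counts scaled to the normalized library size) in Ezh2fl/null replicates 1 to 4, against 235, 230.2, 197 and 207 CPM in Ezh2fl/+ replicates 1 to 4. It averaged 251 ± 23.1 CPM in Ezh2fl/null and 217 ± 18.1 CPM in Ezh2fl/+ (log2 0.21; SD, n = 4 each; edgeR adjusted p = 0.0701; exact two-sided permutation p = 0.0857, where 0.0286 is the smallest possible). The sources used here do not say which part of the gene is deleted, so this count does not check the deletion, and every direction below is that of the libraries as labelled. The labelled tissue showed its defining markers: 13 retinal progenitor genes summed to 6099 to 6879.9 CPM in Ezh2fl/null and 7636 to 8085 CPM in Ezh2fl/+. Ccnd1 carried much of each sum and of the gap, at 3217 ± 183 CPM in Ezh2fl/null and 4102 ± 131 CPM in Ezh2fl/+ (SD, n = 4 each). By the test described below, 5 of the 13 were lower and 8 were not called. By Xist and Y-linked counts, Ezh2fl/null replicates 2 and 3 were female and the other 6 libraries male. Mitochondrial rRNA took 14.0% of the counts in Ezh2fl/null replicate 2, 13.7% in Ezh2fl/+ replicate 1 and 13.5% in Ezh2fl/+ replicate 3, against 8.19% to 11.1% in the other 5, and lens crystallin genes were most counted in Ezh2fl/null replicate 2 and Ezh2fl/+ replicate 1. Calls that depend on these libraries are given with and without them, and 4 values in a row below are replicates 1 to 4 of a group, in CPM.

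More members of the guidance families were higher than lower in the libraries labelled Ezh2fl/null. Of 69 members tested, 20 rose, 4 fell and 45 did not pass at a Benjamini-Hochberg adjusted p under 0.05 (edgeR quasi-likelihood test over 15014 genes). Over all genes tested, 8.35% were called higher and 3.46% lower. The median log2 fold change (Ezh2fl/null over Ezh2fl/+) was 0.03 over the members and -0.01 over all genes. Ligands and receptors both contributed: 10 of 37 ligand rows were higher and 1 lower, and 10 of 32 tested receptor rows were higher and 3 lower. The CPM of the groups did not overlap for 19 members above and 3 below the Ezh2fl/+ range, against 10.1% and 6.21% of all genes tested. The higher members had a median mean level of 3.43 FPKM (fragments scaled by the authors to gene length and library depth) in Ezh2fl/+, those not called 6.13 FPKM and the lower members 11.4 FPKM, where all higher genes had 1.86 FPKM and all lower genes 12.2 FPKM. The higher members had a median log2 fold change of 0.53, against 0.59 over all genes called higher. Leaving out 1 library gave 16 to 19 higher members, and 3 lower members except without Ezh2fl/null replicate 4, when 8 were lower: Epha5, Epha6, Sema4d, Plxnc1, Plxna3, Plxnb2, Plxnd1 and Ephb4. Without the 3 libraries rich in mitochondrial rRNA, 16 were higher and 2, Epha5 and Epha6, were lower.

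Summed over a family, the authors' FPKM of the groups separated in 4 of 13 families, all with the Ezh2fl/null libraries above. The semaphorins summed to 99.4 ± 6.20 FPKM in Ezh2fl/null and 92.1 ± 2.03 FPKM in Ezh2fl/+, and the Robo genes to 41.0 ± 1.36 FPKM in Ezh2fl/null and 36.1 ± 0.846 FPKM in Ezh2fl/+. The netrins summed to 10.1 ± 0.478 FPKM in Ezh2fl/null and 8.93 ± 0.587 FPKM in Ezh2fl/+, and the netrin-G genes to 11.4 ± 1.27 FPKM in Ezh2fl/null and 8.46 ± 0.421 FPKM in Ezh2fl/+ (SD, n = 4 each throughout). These sums were not tested, and no like share was computed for sums of other genes. The FPKM were not rescaled to the normalized library size used for CPM. The scales differ by library: Neo1 in Ezh2fl/+ replicates 1 and 2 was at 29.7 and 29.3 FPKM but 229.7 and 211 CPM. The semaphorin gap was small, from at most 93.3 FPKM in Ezh2fl/+ to at least 95.7 FPKM in Ezh2fl/null. Separation of the sums was not checked on the CPM scale. In the other 9 families the groups overlapped, plexins, ephrin-B, and Dcc with Neo1 among them.

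**Figure D1:**
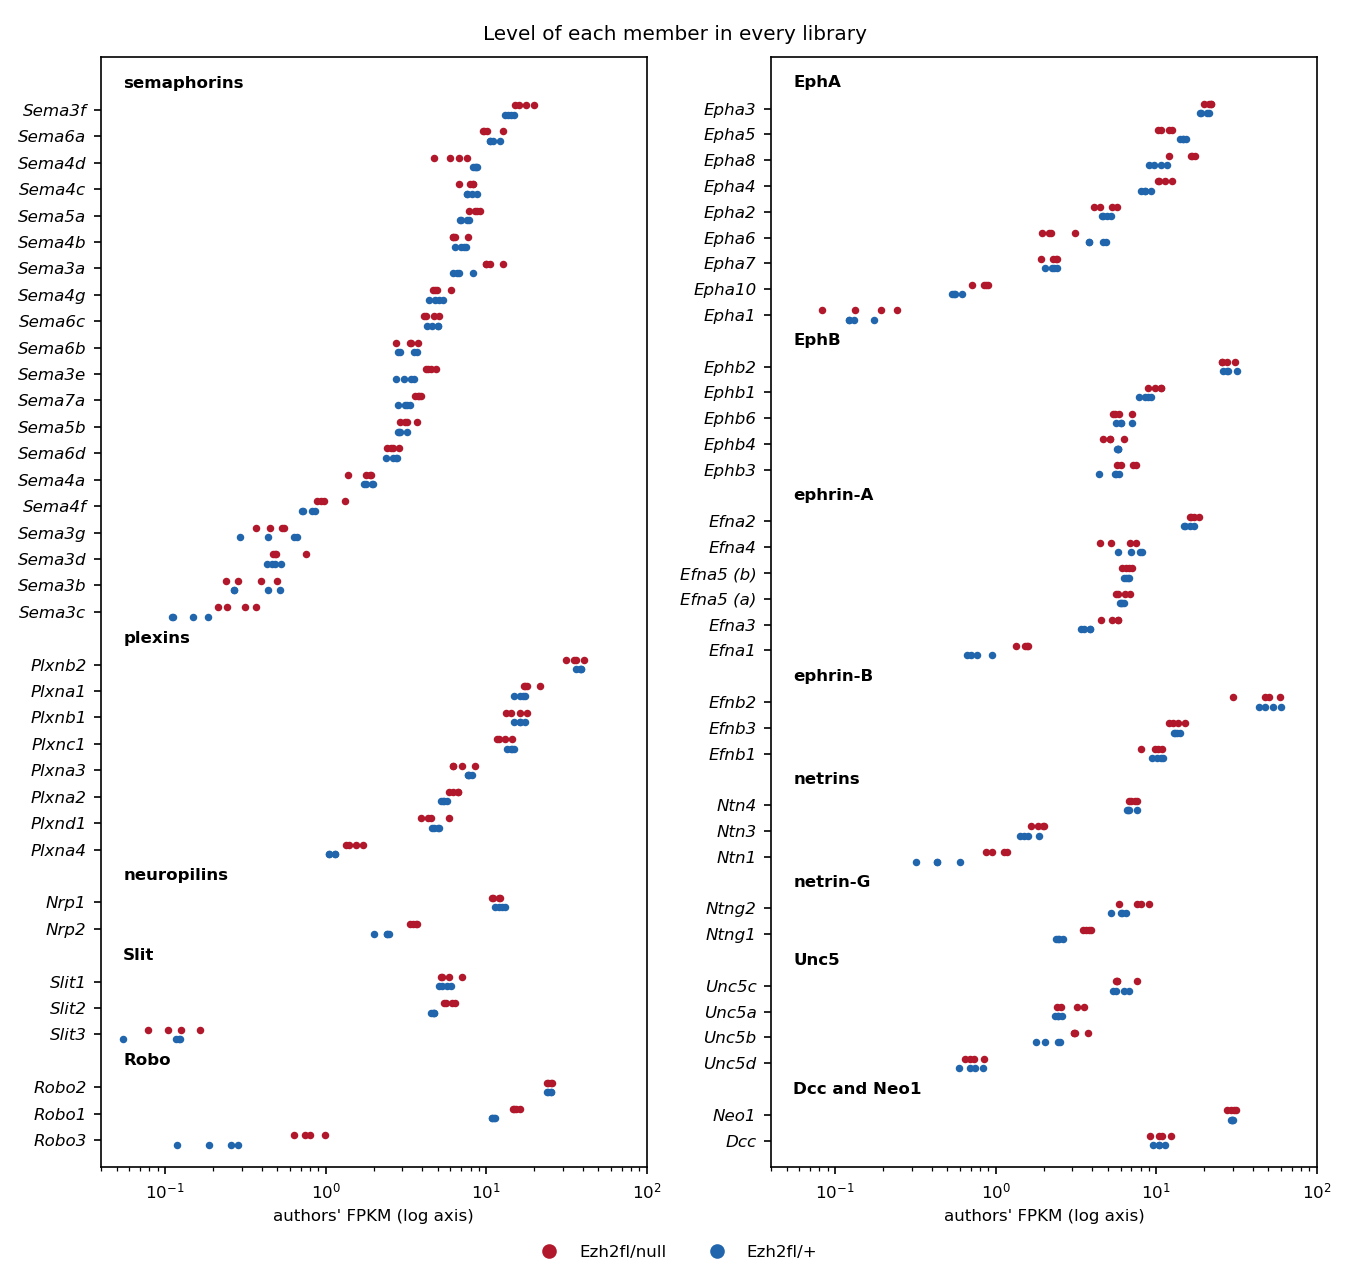
Authors' FPKM (log axis) of each of the 70 members in the 4 Ezh2fl/null and 4 Ezh2fl/+ libraries, grouped by family and ordered by the Ezh2fl/+ mean; Efna5 (a) is the row ENSMUSG00000048915 and Efna5 (b) the row ENSMUSG00000090425. Means over the 8 libraries span 0.111 FPKM for Slit3 to 48.9 FPKM for Efnb2, and the groups separate for members such as Robo3, Ntn1 and Epha6.

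**Figure D2:**
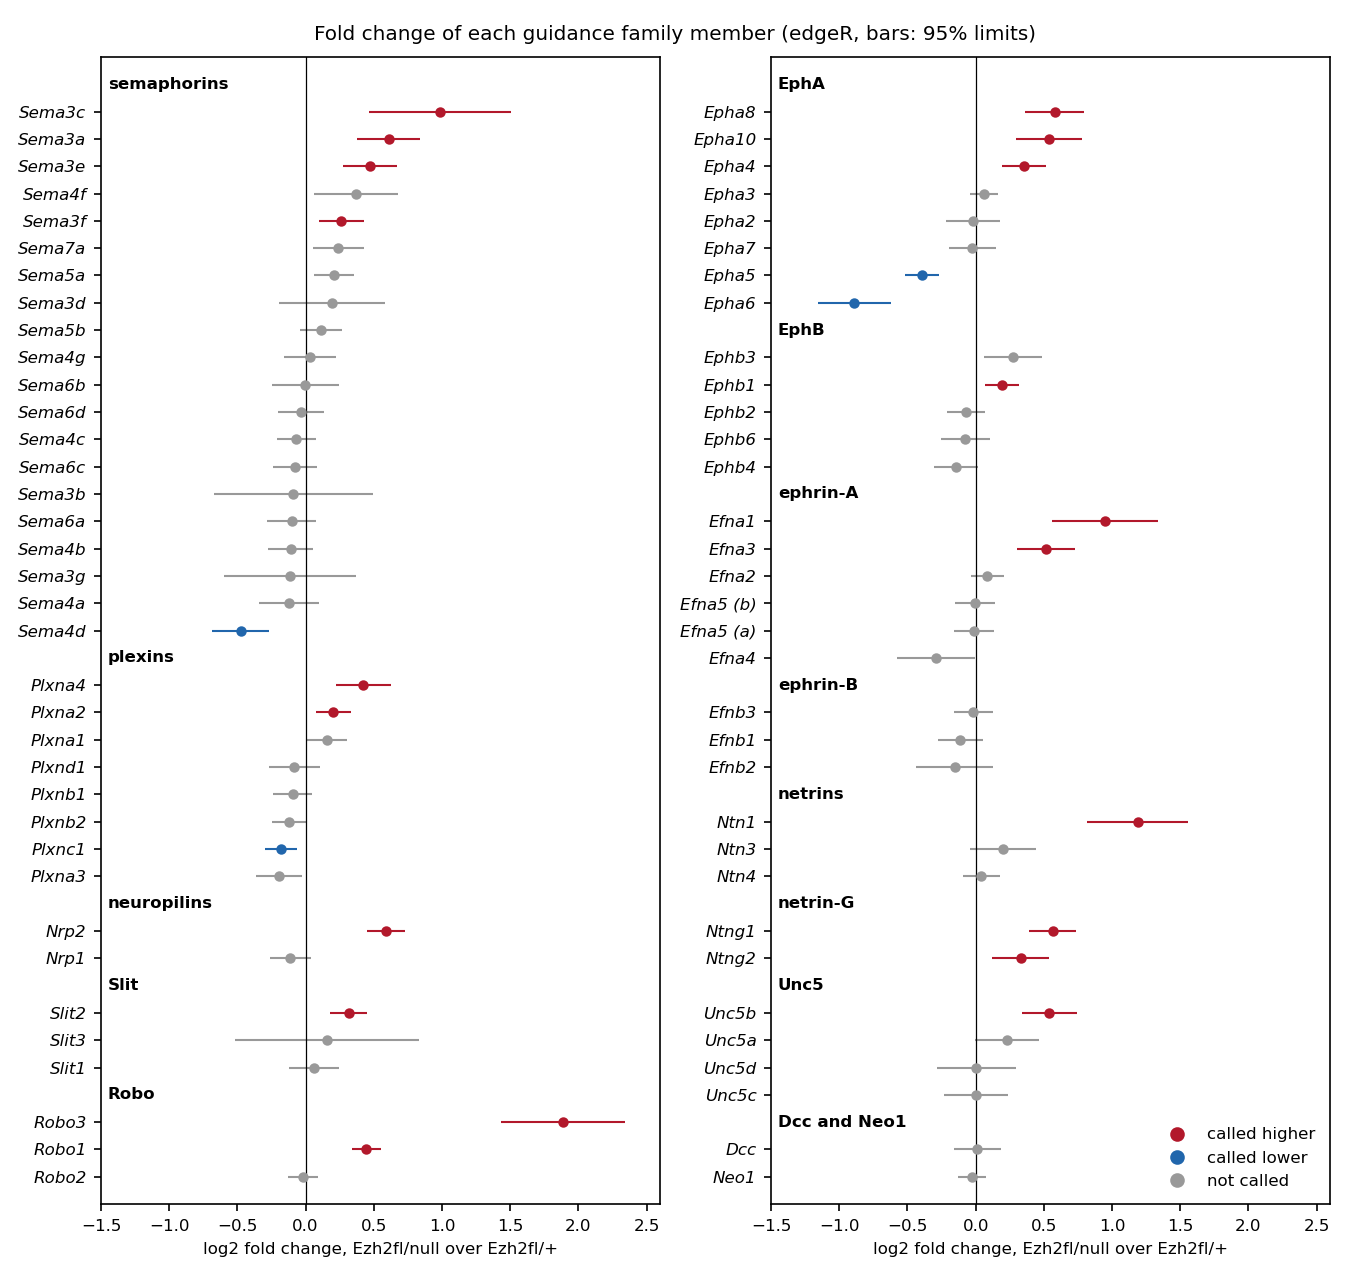
Log2 fold change of Ezh2fl/null over Ezh2fl/+ for the 69 members tested, with 95% limits from the edgeR fit, grouped by family (Efna5 rows as in the plot of levels); red points were called higher, blue lower and grey not called. The 20 members called higher run up to 1.89 for Robo3, and the 4 called lower run down to -0.89 for Epha6.

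Promoters are shown for 4 called members that frame the result: Robo3 and Nrp2, which are among the 3 higher members with the smallest p-values, and Epha6 and Epha5, the 2 lower members with the smallest. Polycomb repressive complex 2 is known to occupy CG-rich promoters in mammals, so the motif CG is marked; its binding was not measured here. Each runs from 250 bases before to 50 bases after the annotated start (RefSeq, GRCm38.p6, printed 5′ to 3′ on the gene's strand), with every CG in capitals; each name is followed by its direction in Ezh2fl/null. The Robo3 window lies at chr9:37433126-37433425 (minus strand), Nrp2 at chr1:62703067-62703366 (plus strand), Epha6 at chr16:60605482-60605781 (minus strand) and Epha5 at chr5:84417333-84417632 (minus strand).
Robo3 (higher): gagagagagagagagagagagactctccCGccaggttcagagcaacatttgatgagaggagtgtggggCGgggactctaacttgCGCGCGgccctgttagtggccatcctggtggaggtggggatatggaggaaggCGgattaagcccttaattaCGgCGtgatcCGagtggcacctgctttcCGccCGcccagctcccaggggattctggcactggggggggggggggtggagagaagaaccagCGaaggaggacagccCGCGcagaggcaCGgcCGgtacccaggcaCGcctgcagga
Nrp2 (higher): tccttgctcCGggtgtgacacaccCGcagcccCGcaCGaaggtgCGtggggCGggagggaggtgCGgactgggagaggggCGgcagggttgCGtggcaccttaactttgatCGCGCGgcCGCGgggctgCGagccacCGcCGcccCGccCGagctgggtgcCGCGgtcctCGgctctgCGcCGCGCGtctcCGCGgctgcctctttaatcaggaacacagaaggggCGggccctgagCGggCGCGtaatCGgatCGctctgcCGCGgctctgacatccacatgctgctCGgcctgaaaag
Epha6 (lower): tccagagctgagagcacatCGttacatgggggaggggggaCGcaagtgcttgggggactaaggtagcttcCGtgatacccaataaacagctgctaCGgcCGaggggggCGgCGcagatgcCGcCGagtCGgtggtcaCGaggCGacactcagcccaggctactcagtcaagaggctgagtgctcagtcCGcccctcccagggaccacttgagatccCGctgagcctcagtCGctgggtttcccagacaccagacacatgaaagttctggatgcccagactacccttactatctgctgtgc
Epha5 (lower): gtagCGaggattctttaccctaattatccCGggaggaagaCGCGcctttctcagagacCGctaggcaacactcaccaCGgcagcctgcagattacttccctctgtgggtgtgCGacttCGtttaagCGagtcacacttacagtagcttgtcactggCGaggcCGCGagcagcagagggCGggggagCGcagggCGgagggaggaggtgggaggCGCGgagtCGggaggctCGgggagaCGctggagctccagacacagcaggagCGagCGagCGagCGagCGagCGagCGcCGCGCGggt
The motif CG reads the same on both strands. It occurs 17 times in the Robo3 window, 37 times in that of Nrp2, 15 times in that of Epha6 and 30 times in that of Epha5. Among 22862 genes with a single listed start, 93.8% of windows hold the motif at least once and the median is 7. The 45 members with a single start had a median of 23. These members were all tested here, whereas the 22862 genes were not limited to genes tested, so the 2 medians are of unlike sets. The ranges of the called and uncalled members overlapped: 2 to 56 in the 15 higher members (median 21), 15 to 30 in the 3 lower members, and 7 to 54 in the 27 not called (median 23). The higher member Sema3a had 2 and the higher member Epha8 had 56. The Sema3a window, at chr5:13396534-13396833, lies well inside the GENCODE gene at chr5:13125414-13602565, so its count of 2 belongs to an internal start. The window of the higher member Robo1, at chr16:72662899-72663198, likewise lies inside its gene at chr16:72308306-73046095. So does that of the higher member Ntng2, with a count of 6, at chr2:29248050-29248349 in a gene at chr2:29194541-29253005. Windows of some other members, among them the higher Plxna2 and Epha10 and the uncalled Nrp1, also lie inside their genes. The ranges and medians above include such internal starts. No test was made between these groups of promoters.

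Slit and Robo genes. The Robo receptors held the largest increase of any member. Robo3, a receptor needed by commissural axons to cross the midline of the hindbrain and spinal cord, was at 5.32, 5.15, 4.26 and 6.55 CPM in Ezh2fl/null replicates 1 to 4, against 2.02, 1.70, 0.842 and 1.23 CPM in Ezh2fl/+ replicates 1 to 4. All 4 Ezh2fl/null libraries lay above all 4 Ezh2fl/+ libraries. The log2 fold change was 1.89, SE 0.21, edgeR adjusted p = 2.84e-05, and the call held in all 19 alternative settings. Robo3 was the lowest of the 3 Robo genes per length, at 0.793 ± 0.150 FPKM in Ezh2fl/null and 0.212 ± 0.0747 FPKM in Ezh2fl/+ (SD, n = 4 each). Robo1, a Slit receptor, stood at 115, 115, 111 and 119.9 CPM in Ezh2fl/null, against 89.7, 82.4, 86.9 and 79.6 CPM in Ezh2fl/+. The groups did not overlap, and the spread within each was small beside the gap (log2 0.45, SE 0.05, edgeR adjusted p = 2.15e-05). Robo2, the Slit receptor known to guide retinal ganglion cell axons, was the highest of the family per length and showed no call: it was at 399.5, 434, 389 and 408 CPM in Ezh2fl/null, against 439, 394, 414 and 406 CPM in Ezh2fl/+ (log2 -0.02, SE 0.05, edgeR adjusted p = 0.867). The 95% limits of the log2 fold change were -0.13 to 0.09 for Robo2 and 0.34 to 0.55 for Robo1; the difference between the genes was not tested. Robo2 made up 60.6% of the summed Robo FPKM in Ezh2fl/null and 68.7% in Ezh2fl/+.

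Among the Slit ligands, which repel ganglion cell axons, 1 of 3 rose. Slit2 was at 83.5, 95.03, 81.3 and 94.0 CPM in Ezh2fl/null, against 74.9, 66.5, 73.7 and 69.3 CPM in Ezh2fl/+ (log2 0.32, SE 0.06, edgeR adjusted p = 0.00348). Every Ezh2fl/null library exceeded every Ezh2fl/+ library. Slit1 was at 34.5, 32.6, 30.4 and 40.9 CPM in Ezh2fl/null, against 33.2, 29.4, 35.6 and 34.6 CPM in Ezh2fl/+ and was not called (log2 0.06, SE 0.09, edgeR adjusted p = 0.741), with overlapping groups. Per length, Slit1 averaged 5.89 FPKM in Ezh2fl/null and 5.55 FPKM in Ezh2fl/+, and Slit2 averaged 5.91 FPKM in Ezh2fl/null and 4.67 FPKM in Ezh2fl/+. Slit3 was barely counted, at 0.752, 0.487, 0.984 and 0.618 CPM in Ezh2fl/null, against 0.749, 0.720, 0.351 and 0.724 CPM in Ezh2fl/+, and its change could not be resolved at this depth (log2 0.15, SE 0.32, edgeR adjusted p = 0.83).

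Netrins and their receptors. Ntn1, which guides ganglion cell axons out of the eye at the optic disc, rose more than any other ligand of these families. It was at 5.91, 5.64, 7.02 and 7.17 CPM in Ezh2fl/null, against 2.85, 1.96, 3.93 and 2.62 CPM in Ezh2fl/+. No library overlapped between the groups, and the log2 fold change of 1.19, SE 0.17, edgeR adjusted p = 2.82e-04 held in all 19 alternative settings. Ntn1 remained the lowest of the 3 netrins per length, at 1.03 ± 0.145 FPKM in Ezh2fl/null and 0.445 ± 0.114 FPKM in Ezh2fl/+ (SD, n = 4 each). Ntn4, a netrin of basement membranes and the highest netrin here, was at 27.4, 26.2, 25.6 and 27.8 CPM in Ezh2fl/null, against 26.2, 23.9, 26.5 and 27.4 CPM in Ezh2fl/+ and was not called (log2 0.04, SE 0.06, edgeR adjusted p = 0.751). Ntn3 was at 8.06, 10.02, 8.86 and 9.33 CPM in Ezh2fl/null, against 7.26, 7.14, 9.54 and 7.57 CPM in Ezh2fl/+, likewise not called, with overlapping groups (log2 0.20, SE 0.11, edgeR adjusted p = 0.312).

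Both netrin-G genes rose; they encode lipid-anchored proteins that bind Lrrc4 family partners rather than Dcc. Ntng1 was at 20.2, 21.4, 18.4 and 18.9 CPM in Ezh2fl/null, against 13.7, 12.8, 14.7 and 12.3 CPM in Ezh2fl/+, with no overlap (log2 0.56, SE 0.08, edgeR adjusted p = 2.42e-04). Ntng2 was at 33.2, 22.5, 27.7 and 29.0 CPM in Ezh2fl/null, against 23.6, 22.3, 20.5 and 23.3 CPM in Ezh2fl/+ (log2 0.33, SE 0.10, edgeR adjusted p = 0.0384); the highest Ezh2fl/null library was replicate 1, and the groups overlapped. The call of Ntng2 was lost when any single library other than Ezh2fl/null replicate 2 was left out (edgeR adjusted p 0.0551 to 0.118), and held in 11 of 19 alternative settings. Ntng2 shares 14.0% of its exon bases with 6530402F18Rik on the same strand, itself at log2 0.55.

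Of the receptors for netrins, 1 Unc5 gene changed and Dcc and Neo1 did not pass the test. Unc5b, a repulsive netrin receptor also found on endothelial cells, was at 17.9, 18.9, 17.6 and 21.4 CPM in Ezh2fl/null, against 11.0, 14.5, 12.6 and 13.9 CPM in Ezh2fl/+ (log2 0.54, SE 0.09, edgeR adjusted p = 0.00128), with no overlap between groups. Unc5a was at 10.5, 10.3, 13.2 and 14.5 CPM in Ezh2fl/null, against 10.3, 10.02, 10.7 and 10.4 CPM in Ezh2fl/+ (log2 0.23, SE 0.11, edgeR adjusted p = 0.225). Unc5c, the highest of the family per length, was at 68.2, 95.03, 67.4 and 67.0 CPM in Ezh2fl/null, against 71.6, 64.2, 86.3 and 74.6 CPM in Ezh2fl/+ (log2 0.0029, SE 0.11, edgeR adjusted p = 0.991). Ezh2fl/null replicate 2 alone was high for Unc5c, and the other 3 Ezh2fl/null libraries lay within the Ezh2fl/+ range. Unc5d was at 6.13, 7.73, 6.49 and 5.56 CPM in Ezh2fl/null, against 7.79, 5.17, 6.45 and 6.40 CPM in Ezh2fl/+ (log2 0.0048, SE 0.14, edgeR adjusted p = 0.989), with overlapping groups. Dcc, the attractive netrin receptor, was at 72.8, 90.8, 82.9 and 96.3 CPM in Ezh2fl/null, against 80.5, 81.9, 95.6 and 81.5 CPM in Ezh2fl/+ (log2 0.01, SE 0.08, edgeR adjusted p = 0.948). The groups overlapped, and the Ezh2fl/null range was the wider, from 72.8 to 96.3 CPM against 80.5 to 95.6 CPM in Ezh2fl/+. Neo1, a receptor for netrins and repulsive guidance molecules, was at 222, 211, 212 and 227 CPM in Ezh2fl/null, against 229.7, 211, 234 and 212 CPM in Ezh2fl/+ (log2 -0.03, SE 0.05, edgeR adjusted p = 0.807), again overlapping. The 95% limits of -0.16 to 0.18 for Dcc and -0.13 to 0.08 for Neo1 leave room for changes of that size in either direction. Of 12 endothelial markers listed, 7 were in the gene table and 5 were tested: Cldn5 and Egfl7 were higher (log2 0.43 and 0.57) and Kdr was lower (-0.24), calls that held in 11, 14 and 16 of 19 alternative settings. Of all genes tested, 8.35% were called higher and 3.46% lower. Flt1 (log2 -0.69, edgeR adjusted p = 0.0669) and Pecam1 (log2 0.14, edgeR adjusted p = 0.895) were not called. Pecam1 was barely counted, at a mean of 0.597 CPM in Ezh2fl/null and 0.524 CPM in Ezh2fl/+, and Cdh5 and Vwf were lower still. The 7 markers in the gene table summed to 277 to 316 CPM in Ezh2fl/null and 328 to 357 CPM in Ezh2fl/+. Kdr alone carried the lower sum: the other 6 summed to 16.9 to 21.0 CPM in Ezh2fl/null and 14.7 to 16.2 CPM in Ezh2fl/+. The part of endothelial cells in the change of Unc5b was not tested.

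EphA receptors and ephrin-A ligands. EphA receptors changed in both directions, with 3 of 8 tested higher and 2 lower. Epha6 and Epha5, receptors that are known to be graded from high temporal to low nasal in mouse retina, fell. Epha6 was at 11.6, 10.6, 11.2 and 16.1 CPM in Ezh2fl/null, against 26.1, 19.7, 21.1 and 24.9 CPM in Ezh2fl/+, the largest decrease of any member (log2 -0.89, SE 0.13, edgeR adjusted p = 2.13e-04). The highest Ezh2fl/null library, replicate 4, lay below the lowest Ezh2fl/+ library. Epha5 was at 124, 106, 105 and 117 CPM in Ezh2fl/null, against 161, 144, 149 and 142 CPM in Ezh2fl/+ (log2 -0.39, SE 0.06, edgeR adjusted p = 3.11e-04), again with no overlap. Both calls held in all 19 alternative settings. Antisense transcript Gm9017 shares 2.02% of the exon bases of Epha6 and was itself at log2 -1.12, on 101 counts over the 8 libraries; the sources used here do not say if strand was used in counting.

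Other EphA receptors rose. Epha8 was at 76.7, 58.3, 77.1 and 80.3 CPM in Ezh2fl/null, against 44.6, 44.3, 58.1 and 48.7 CPM in Ezh2fl/+ (log2 0.58, SE 0.10, edgeR adjusted p = 0.00124). Replicate 2 was the lowest Ezh2fl/null library, and it lay just above the highest Ezh2fl/+ library. Epha10, whose product lacks kinase activity, was at 6.02, 5.29, 6.17 and 6.30 CPM in Ezh2fl/null, against 4.04, 4.32, 4.14 and 3.90 CPM in Ezh2fl/+ (log2 0.54, SE 0.11, edgeR adjusted p = 0.00502), with no overlap. Epha4, which binds ephrins of both classes, averaged 70.1 ± 8.19 CPM in Ezh2fl/null and 54.8 ± 2.55 CPM in Ezh2fl/+ (log2 0.36, SE 0.07, edgeR adjusted p = 0.00502; SD, n = 4 each). The groups did not overlap, and the call was lost with sex as a covariate (edgeR adjusted p = 0.0595) and without the 3 libraries rich in mitochondrial rRNA (edgeR adjusted p = 0.0668). Epha3, the highest EphA receptor per length at 21.2 FPKM in Ezh2fl/null and 20.0 FPKM in Ezh2fl/+, was at 119, 128, 111 and 119.9 CPM in Ezh2fl/null, against 112, 119, 113 and 114 CPM in Ezh2fl/+ and was not called (log2 0.06, SE 0.05, edgeR adjusted p = 0.498). Epha2 and Epha7 were also not called, at log2 -0.02 and -0.02. Epha1 was not tested: it had 8, 4, 12 and 10 counts in Ezh2fl/null and 6, 6, 6 and 10 in Ezh2fl/+.

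Among the ephrin-A ligands, 2 of 6 rows rose. Efna1 was at 2.85, 2.99, 2.43 and 2.72 CPM in Ezh2fl/null, against 1.35, 1.38, 1.82 and 1.17 CPM in Ezh2fl/+ (log2 0.95, SE 0.18, edgeR adjusted p = 0.00253). The libraries did not overlap, at a level that stayed the lowest of the family per length. Efna3 was at 10.9, 13.4, 13.8 and 13.6 CPM in Ezh2fl/null, against 9.88, 8.06, 9.12 and 9.08 CPM in Ezh2fl/+ (log2 0.51, SE 0.10, edgeR adjusted p = 0.00293), also without overlap, and passed in every alternative setting but the male libraries alone (edgeR adjusted p = 0.0532). The 3 genes Efna1, Efna3 and Efna4 lie within chr3:89271733-89338028 (mm10), and Efna4 was not called. The antisense gene Gm15998 covers 14.1% of the Efna3 exon bases and stood at log2 0.79, on 333 counts over the 8 libraries. Efna2, the ephrin-A with the highest level per length, was at 34.4, 35.9, 38.9 and 35.4 CPM in Ezh2fl/null, against 33.9, 33.8, 33.1 and 35.3 CPM in Ezh2fl/+ (log2 0.09, SE 0.06, edgeR adjusted p = 0.397). Efna4 was at 8.28, 7.38, 10.8 and 11.6 CPM in Ezh2fl/null, against 9.73, 12.7, 11.7 and 12.2 CPM in Ezh2fl/+ (log2 -0.29, SE 0.13, edgeR adjusted p = 0.200), where Ezh2fl/null replicates 1 and 2 were low and replicates 3 and 4 lay within the Ezh2fl/+ range. Efna5, which with Efna2 is known to repel temporal axons in the midbrain, had 2 rows at log2 -0.01 and -0.01; 1 identifier has no match in the annotation, and the pair may share reads.

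EphB receptors and ephrin-B ligands. These families are known for opposing dorsal and ventral gradients in the retina, and 1 of their 8 members was called. Ephb1, which directs the ipsilateral projection of ventrotemporal axons in mice, was that member, at an adjusted p near the threshold. It was at 68.5, 59.5, 63.0 and 67.5 CPM in Ezh2fl/null, against 58.3, 58.5, 53.6 and 56.0 CPM in Ezh2fl/+ (log2 0.19, SE 0.06, edgeR adjusted p = 0.0485), without overlap, but the call was lost when any single library except Ezh2fl/null replicate 2 was left out (edgeR adjusted p 0.0680 to 0.147) and held in 7 of 19 alternative settings. Ephb2, the highest EphB receptor per length and known as ventral-high, was at 321, 331, 343 and 382 CPM in Ezh2fl/null, against 363, 321, 372 and 389 CPM in Ezh2fl/+ (log2 -0.07, SE 0.07, edgeR adjusted p = 0.598), with overlapping groups. Ephb3 was at 37.8, 37.1, 44.1 and 45.7 CPM in Ezh2fl/null, against 36.8, 26.98, 38.5 and 34.0 CPM in Ezh2fl/+ (log2 0.28, SE 0.10, edgeR adjusted p = 0.0937). Its groups overlapped, and it passed without the 3 libraries rich in mitochondrial rRNA (log2 0.47, edgeR adjusted p = 0.0177). Ephb4, a receptor of venous endothelium, was at 23.8, 22.2, 23.6 and 28.3 CPM in Ezh2fl/null, against 27.8, 26.1, 28.3 and 26.1 CPM in Ezh2fl/+ (log2 -0.14, SE 0.08, edgeR adjusted p = 0.271), and passed without Ezh2fl/null replicate 4 (log2 -0.22, edgeR adjusted p = 0.0395). Ephb6, which lacks kinase activity, was at log2 -0.08.

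Efnb2, a dorsal ephrin of the retina, had the highest level per length of all members, 46.8 ± 12.1 FPKM in Ezh2fl/null and 51.1 ± 6.96 FPKM in Ezh2fl/+ (SD, n = 4 each). It was at 215, 133, 204 and 247 CPM in Ezh2fl/null, against 198, 252, 217 and 222 CPM in Ezh2fl/+. Replicate 2 was the low library of the Ezh2fl/null group, and the other 3 lay within the Ezh2fl/+ range. Efnb2 was not called (log2 -0.15, SE 0.13, edgeR adjusted p = 0.546), and its sign changed with the male libraries alone (log2 0.05). Efnb1 was at 35.0, 28.4, 33.5 and 36.3 CPM in Ezh2fl/null, against 39.0, 37.4, 34.0 and 34.0 CPM in Ezh2fl/+ (log2 -0.11, SE 0.08, edgeR adjusted p = 0.422). Efnb3 was at 40.1, 39.3, 43.0 and 46.6 CPM in Ezh2fl/null, against 44.8, 43.6, 43.5 and 39.5 CPM in Ezh2fl/+ (log2 -0.02, SE 0.07, edgeR adjusted p = 0.914). The groups overlapped for both. Efnb1 and the plexin gene Plxna3 lie on the X chromosome, where the 2 female libraries are both Ezh2fl/null.

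**Figure D3:**
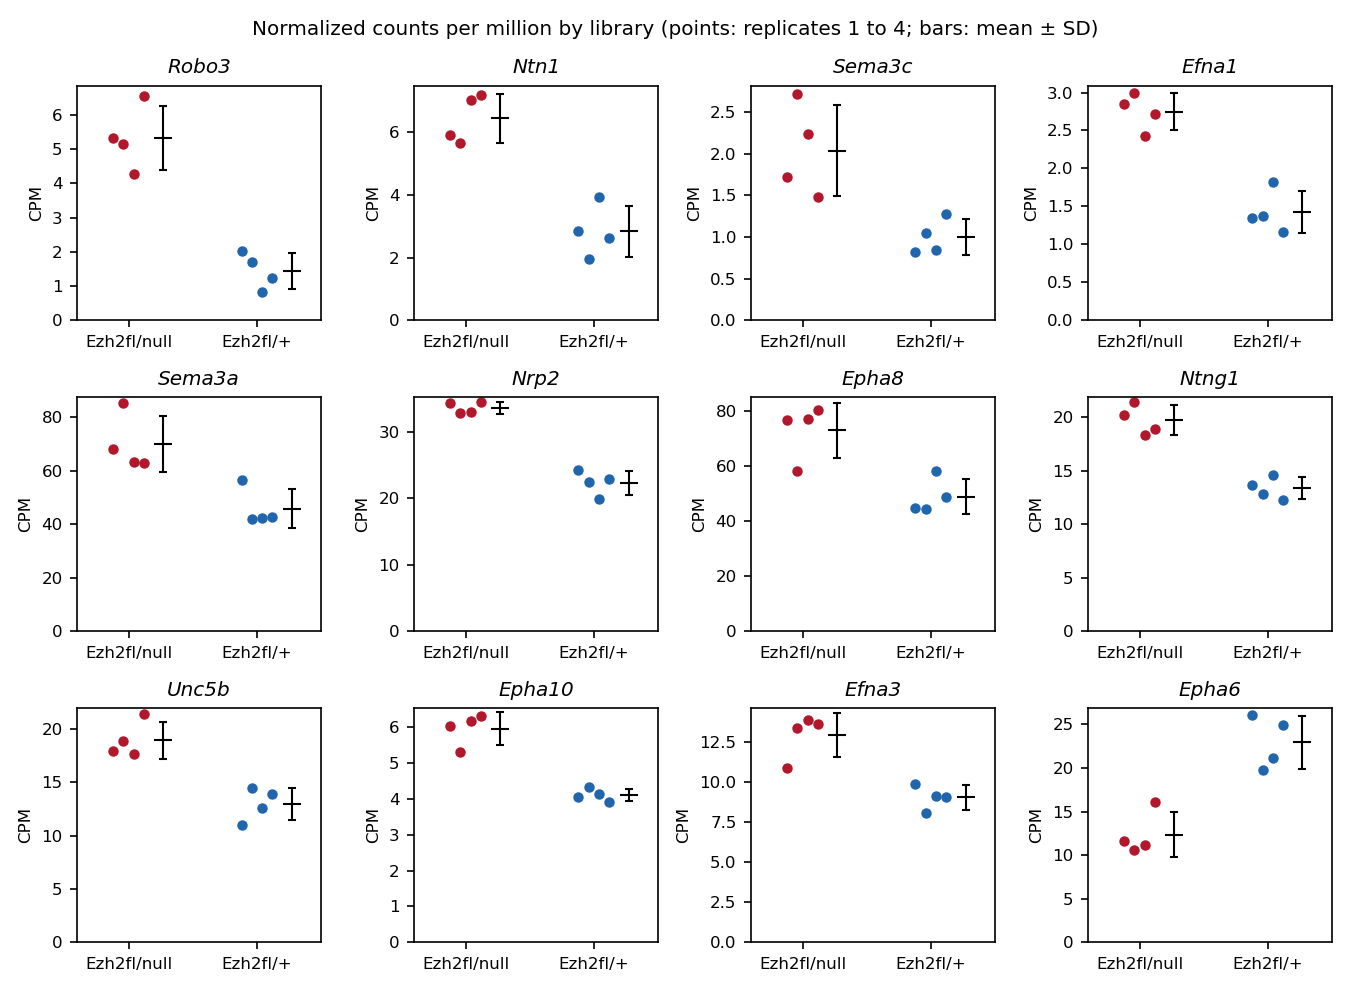
Normalized CPM in each of the 4 Ezh2fl/null and 4 Ezh2fl/+ libraries for the 12 members called with a log2 fold change of at least 0.5 in size, with the mean and SD beside the points. In 11 panels all Ezh2fl/null points lie above the Ezh2fl/+ points, and in the Epha6 panel they lie below.

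Semaphorins and their receptors. Of 20 semaphorins, 4 rose and 1 fell, and the 4 that rose were 4 of the 7 secreted class 3 members. Sema3a, Sema3c, Sema3d and Sema3e, of which 3 rose, lie within chr5:12383385-17730268 (mm10). Sema3a, a repellent that signals through neuropilin and plexin A receptors, was at 68.1, 85.3, 63.5 and 63.1 CPM in Ezh2fl/null, against 56.6, 41.8, 42.4 and 42.7 CPM in Ezh2fl/+ (log2 0.61, SE 0.11, edgeR adjusted p = 0.00138). The groups did not overlap, although Ezh2fl/+ replicate 1 stood above the other Ezh2fl/+ libraries. Sema3e, which binds Plxnd1 directly and acts on retinal vessels, was at 36.4, 35.6, 31.6 and 31.9 CPM in Ezh2fl/null, against 28.1, 20.4, 27.003 and 22.5 CPM in Ezh2fl/+ (log2 0.47, SE 0.09, edgeR adjusted p = 0.00296), without overlap. Sema3f, the highest semaphorin per length and a Nrp2 ligand, was at 50.9, 55.6, 59.2 and 65.1 CPM in Ezh2fl/null, against 48.4, 43.7, 51.1 and 49.0 CPM in Ezh2fl/+ (log2 0.26, SE 0.08, edgeR adjusted p = 0.0351). Its groups overlapped, and the call was lost without Ezh2fl/null replicate 3 or 4 or Ezh2fl/+ replicate 1, 2 or 4 (edgeR adjusted p 0.0645 to 0.118). It was also lost with the male libraries alone (edgeR adjusted p = 0.124), without the 2 libraries with most lens counts (edgeR adjusted p = 0.0722) and without the 3 rich in mitochondrial rRNA (edgeR adjusted p = 0.0804). Sema3c was at 1.72, 2.72, 2.23 and 1.48 CPM in Ezh2fl/null, against 0.824, 1.05, 0.842 and 1.28 CPM in Ezh2fl/+ (log2 0.98, SE 0.24, edgeR adjusted p = 0.0152). It did not overlap, but its level was low, and the call was lost without Ezh2fl/+ replicate 3 (edgeR adjusted p = 0.0505), with the male libraries alone (edgeR adjusted p = 0.217) and with sex as a covariate (edgeR adjusted p = 0.186). It was also lost without the 2 libraries with most lens counts (edgeR adjusted p = 0.106) and without the 3 rich in mitochondrial rRNA (edgeR adjusted p = 0.290). Sema3b, Sema3d and Sema3g were not called, at log2 -0.09, 0.19 and -0.11.

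Sema4d, a membrane semaphorin that acts through Plxnb1, was the semaphorin that fell. It was at 43.1, 31.4, 37.9 and 47.7 CPM in Ezh2fl/null, against 58.0, 55.5, 58.2 and 51.8 CPM in Ezh2fl/+ (log2 -0.48, SE 0.10, edgeR adjusted p = 0.00448). Ezh2fl/null replicate 2 was the lowest library and all 4 lay below the Ezh2fl/+ range. Without the 3 libraries rich in mitochondrial rRNA it was at log2 -0.32 (edgeR adjusted p = 0.0604). The other class 4 genes Sema4a, Sema4b, Sema4c, Sema4f and Sema4g ran from log2 -0.12 for Sema4a to 0.37 for Sema4f, and none was called, although the Sema4f groups did not overlap. Sema5a and Sema5b, which keep inner retinal neurites within their layer, were at log2 0.21 (edgeR adjusted p = 0.0637) and 0.11. The transmembrane Sema6a to Sema6d ran from log2 -0.10 for Sema6a to -0.0022 for Sema6b, and the lipid-anchored Sema7a was at 0.24 (edgeR adjusted p = 0.102), without overlap.

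Nrp2, a co-receptor for class 3 semaphorins, rose. It was at 34.3, 32.8, 32.9 and 34.4 CPM in Ezh2fl/null, against 24.2, 22.4, 19.8 and 22.8 CPM in Ezh2fl/+ (log2 0.59, SE 0.07, edgeR adjusted p = 2.24e-05). The Ezh2fl/null libraries differed among themselves by less than the Ezh2fl/+ libraries did, and the call held in all 19 alternative settings. Nrp1, the co-receptor for Sema3a and for vascular growth factor, was at 63.2, 74.4, 64.4 and 69.2 CPM in Ezh2fl/null, against 74.7, 65.4, 81.3 and 71.3 CPM in Ezh2fl/+ and was not called (log2 -0.11, SE 0.07, edgeR adjusted p = 0.388). The 95% limits of the fold changes did not meet, at 0.45 to 0.73 for Nrp2 and -0.26 to 0.04 for Nrp1; the difference between the genes was not itself tested. Nrp1 made up 76.4% of the summed neuropilin FPKM in Ezh2fl/null and 84.0% in Ezh2fl/+.

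Of 8 plexins, the signalling receptors of semaphorins, 2 rose and 1 fell. Plxna4, which serves class 3 and class 6 semaphorins, was at 14.9, 17.9, 15.5 and 18.6 CPM in Ezh2fl/null, against 13.4, 11.5, 13.5 and 11.5 CPM in Ezh2fl/+ (log2 0.42, SE 0.09, edgeR adjusted p = 0.00764). It was the lowest plexin per length and the only one whose groups did not overlap. Plxna2 was at 93.4, 104, 87.0 and 97.9 CPM in Ezh2fl/null, against 84.9, 77.0, 87.1 and 83.6 CPM in Ezh2fl/+ (log2 0.20, SE 0.06, edgeR adjusted p = 0.0408). Plxnc1, the receptor of Sema7a, was at 101, 94.7, 93.5 and 109.9 CPM in Ezh2fl/null, against 119.6, 114, 111 and 108 CPM in Ezh2fl/+ (log2 -0.18, SE 0.06, edgeR adjusted p = 0.0475). The groups overlapped for both, and the call of Plxna2 held in 7 and that of Plxnc1 in 4 of 19 alternative settings. That of Plxna2 was lost when any single library other than Ezh2fl/null replicate 3 was left out (edgeR adjusted p 0.0511 to 0.126), and that of Plxnc1 when any other than Ezh2fl/null replicate 4 was (edgeR adjusted p 0.0602 to 0.136). With the male libraries alone the edgeR adjusted p was 0.0837 for Plxna2 and 0.439 for Plxnc1. Plxnb2, the highest plexin per length, was at 247, 229, 254 and 283 CPM in Ezh2fl/null, against 272, 269, 293 and 267 CPM in Ezh2fl/+ (log2 -0.12, SE 0.06, edgeR adjusted p = 0.237). Plxna3 was at 48.7, 50.3, 54.6 and 65.0 CPM in Ezh2fl/null, against 64.1, 60.0, 64.1 and 62.1 CPM in Ezh2fl/+ (log2 -0.20, SE 0.08, edgeR adjusted p = 0.139). Ezh2fl/null replicate 4 was the highest Ezh2fl/null library for both, and without it both were called lower (log2 -0.18, edgeR adjusted p = 0.0352 for Plxnb2 and log2 -0.29, edgeR adjusted p = 0.00447 for Plxna3). Plxna1, Plxnb1 and Plxnd1 were not called, at log2 0.16, -0.10 and -0.08.

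Genes outside the families that act with them were counted in 3 lists. Over all genes tested, 8.35% were called higher and 3.46% lower. Of 28 partners of guidance ligands and receptors, 2 were higher and 3 lower (median log2 -0.02). Cntn2, an axonal adhesion molecule, fell to 144 ± 39.96 CPM in Ezh2fl/null, against 233 ± 24.6 CPM in Ezh2fl/+ (SD, n = 4 each; log2 -0.69, SE 0.14, edgeR adjusted p = 0.00327). Flrt2, an Unc5 ligand, was at log2 -0.26 and Kdr, a vascular growth factor receptor that pairs with neuropilins, at -0.24, while Boc was at 0.36 and the Neo1 ligand Rgma at 0.29, a call kept in 4 of 19 alternative settings. Of 54 intracellular effectors, 4 were higher and 1 lower (median -0.01), both shares below those over all genes tested. Among the higher were the actin-binding gene Ablim3 (log2 0.75, SE 0.08, edgeR adjusted p = 2.62e-05), the Rac regulator Chn2 (0.33) and the kinase gene Pak1 (0.19), and the lower was Mical1 (-0.29), which acts downstream of plexins. The call of Boc held in 11 and that of Mical1 in 9 of 19 alternative settings. Over the 3 lists together, the next one included, 11 genes were higher and 5 lower. Without Ezh2fl/null replicate 4 these counts were 9 and 12, with the male libraries alone 7 and 2, and without the 3 libraries rich in mitochondrial rRNA 6 and 0.

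Of 15 tested factors that set position in the retina, 5 were higher and 1 lower (median 0.29), beside 8.35% and 3.46% of all genes tested. The higher were Cyp26a1, which degrades retinoic acid (log2 0.86, SE 0.11, edgeR adjusted p = 8.8e-05), Isl2, a factor of contralaterally projecting ganglion cells (0.55), Vax1, a factor of the ventral optic cup and stalk (0.64), the dorsal factor Tbx5 (0.50) and the dorsal enzyme Aldh1a1 (0.29). The ventral enzyme Aldh1a3 was lower (-0.46). The call of Aldh1a1 held in 11 of 19 alternative settings, and those of the other 5 in 15 or more. The temporal factor Foxd1, whose product patterns the EphA gradient, was not called, at log2 -0.34 (edgeR adjusted p = 0.119).

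Some markers of the cells that could carry these transcripts were called as well, where 8.35% of all genes tested were higher and 3.46% lower. Of 18 ganglion cell markers, 5 were higher and 5 lower, and they summed to 2606 to 2697 CPM in Ezh2fl/null and 2637 to 3065 CPM in Ezh2fl/+. Thy1, Pou4f3, Nefh, Isl2 and Slc17a6 were the higher, up to log2 1.45 for Thy1, and Pou4f2, Atoh7, Eomes, Nefm and Isl1 the lower, down to log2 -0.96 for Pou4f2; the call of Isl1 held in 6 of 19 alternative settings. Of 11 amacrine cell markers, 5 were higher and 0 lower (573 to 656 CPM in Ezh2fl/null and 431 to 455 CPM in Ezh2fl/+). Of 9 photoreceptor markers in the table, 7 were higher (848 to 919 CPM in Ezh2fl/null and 757 to 781 CPM in Ezh2fl/+). Of 13 progenitor markers, 5 were lower. Of 10 tested mesenchyme markers 4 were higher, Twist1, Prrx1, Foxc1 and Pdgfra, and the list summed to 45.0 to 98.1 CPM in Ezh2fl/null and 42.4 to 70.1 CPM in Ezh2fl/+. Of 9 microglia markers 4 were higher (46.8 to 55.9 CPM in Ezh2fl/null and 33.5 to 42.4 CPM in Ezh2fl/+). Pigment epithelium markers (11.98 to 25.2 CPM in Ezh2fl/null and 11.6 to 37.7 CPM in Ezh2fl/+), lens markers (3.27 to 11.0 CPM in Ezh2fl/null and 2.39 to 14.8 CPM in Ezh2fl/+) and erythroid markers (91.3 to 873 CPM in Ezh2fl/null and 161 to 1290.1 CPM in Ezh2fl/+) had no member called. The part of these cell types in the changes of the guidance genes was not tested.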

How the data were processed

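RNA-seq of peripheral retina gave 8 libraries in 2 groups of 4. Counts as deposited are whole numbers, one per gene and library, without normalization, per the file headers; FPKM, a log2 ratio and an adjusted p score on an unnamed scale are the authors' further columns, and the score was not used. Novoalign 2.08.01, mm10 and DESeq2 are named in the submitters' processing notes; the sources used here do not give the counter, its annotation or its use of strand.

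Counts were tested with edgeR 4.0.16 in R 4.3.3 (TMM normalization, filterByExpr with a minimum count of 10, glmQLFit and glmQLFTest, Benjamini-Hochberg adjustment over 15014 genes, called under 0.05), without covariates. The filter kept 99.9% of the counts; the steps were tested on simulated data. CPM, list sums included, used the TMM-scaled library size. Libraries were compared by a chi-square of their counts, and no pair of libraries agreed within sampling noise. The authors' deposited log2 ratio had the same sign as the fit here in 67 of 69 members. Alternatives were other scalings and filters, DESeq2 1.42.0, limma 3.58.1, a replicate block, sex as a covariate, male libraries only, and libraries left out; the one without libraries over 12% mitochondrial rRNA was added after the data were seen.

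Coordinates came from GENCODE M21 (mm10), which held 68 of the 70 member identifiers, and promoters from RefSeq (GRCm38.p6), with a single start for 45 members. Members and lists were chosen with earlier results of these data known. Values per library are given for called members with a log2 fold change of at least 0.5 in size, for up to 4 members per family with the smallest p and for the highest of each family by FPKM; up to 6 called genes are named per list, and some list genes are not reported here. Epha4, called but outside that rule, and the marker genes were named after their values were seen. Intervals and p-values cover these libraries only.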

Additional observations from a re-analysis of the deposited data

Results flagged for a closer look

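In 6 of 90 groups of 4 libraries (45 members in 2 groups), 1 library stood apart from the other 3 by more of the group's range of CPM than Dixon's critical value allows; chance alone gives this in about 1 of 20 groups. In Ezh2fl/null, Epha8 was lowest in replicate 2 at 58.3 CPM, Efna3 was lowest in replicate 1 at 10.9 CPM, and Unc5c was highest in replicate 2 at 95.03 CPM. In Ezh2fl/+, Sema3a was highest in replicate 1 at 56.6 CPM, Dcc was highest in replicate 3 at 95.6 CPM, and Slit3 was lowest in replicate 3 at 0.351 CPM. The calls of Epha8 and Sema3a held when that library was left out, as did the call of Efna3. Ezh2fl/null replicate 2 and Ezh2fl/+ replicates 1 and 3 are also the 3 libraries with most mitochondrial rRNA; the part of that in these values was not tested.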

How the results depend on the processing

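The number of members called higher stayed between 16 and 21 over 19 alternatives, against 20 in the main test. The number called lower, 4, became 2 without the libraries with high mitochondrial rRNA, and ran from 3 to 8 when 1 library was left out. Over the 3 lists of partner, effector and position genes, 11 higher became 6 with sex as a covariate, 7 with male libraries only and 6 without the high mitochondrial rRNA libraries, and ran from 8 to 10 with 1 library left out. The 5 lower became 2, 2 and 0 in those 3 settings and 8 with the replicate block, and ran from 4 to 12 with 1 library left out. The log2 fold change of Ezh2 passed with DESeq2 (0.20, adjusted p = 0.0423), with the replicate block (0.21, edgeR adjusted p = 0.0250) and without Ezh2fl/null replicate 4; it ran from 0.16 to 0.26 with 1 library left out.

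No called member changed sign. Among uncalled members given by summary, Sema3b, Sema3d, Sema3g, Sema4c, Sema4g, Sema6a, Sema6b, Sema6d, Plxnd1, Epha2, Epha7 and both Efna5 rows changed sign in at least 1 alternative. The uncalled members with values per library that did so had these log2 values. With sex as a covariate they were Dcc -0.0071, Efnb2 0.053, Efnb3 0.019, Neo1 0.016, Unc5c -0.13 and Unc5d -0.14, and with male libraries only Dcc -0.0075, Efnb2 0.053, Efnb3 0.018, Neo1 0.016, Unc5c -0.13 and Unc5d -0.14. Without the lens libraries they were Dcc -0.040, Efnb3 0.037, Neo1 0.0059 and Unc5c -0.15, and without the high mitochondrial rRNA libraries Efnb3 0.060, Neo1 0.055 and Unc5c -0.040. Library size alone gave Efnb3 0.0079 and Robo2 0.0034, no filter Unc5c -0.00042, DESeq2 Unc5c -0.00082 and Unc5d -0.00011, limma voom Unc5c -0.0078, and the replicate block Unc5c -0.0046 and Unc5d -0.00018. With 1 library left out the ranges were -0.049 to 0.087 for Dcc, -0.068 to 0.015 for Efnb3, -0.052 to 0.0086 for Robo2, -0.029 to 0.12 for Slit1, -0.033 to 0.28 for Slit3, -0.13 to 0.083 for Unc5c and -0.088 to 0.10 for Unc5d. The causes were not tested.

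Deviations from the group means correlated at 0.234, -0.0867, 0.00546 and 0.170 in same-numbered libraries 1 to 4. Those of libraries with unlike numbers ran from -0.216 to 0.163. Numbers 1 and 4 thus gave the highest correlations and 2 and 3 did not, so this check cannot decide if the numbers pair samples. With the replicate block 19 members were higher and 3 lower. Library-size scaling moved the median log2 fold change of all genes by 0.023. Slit3, near 1 CPM or below, and Epha1 are limited by depth.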
